A study of Homo sapiens with 4 samples.

Results

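On the assembled chromosomes, 14 of the 965 genes nearest to a peak of the tagged zinc finger protein ZNF416 were nearest to 3 or more peaks (1.45%), and 9 of them are described here. They are IFITM3, SBNO2, SMCO1, DBNDD1, SLC6A3, MIR137HG, SLC5A11, PRKCE and SORCS2. Together they account for 31 of the 1080 peaks on chromosomes, and for 31 of the 1386 peaks of the whole list. They were chosen by the number of peaks that share a nearest transcription start site (TSS), so that number is the selection and not a finding. The other 5 genes that meet the same count are AFAP1-AS1, TNFRSF18, HS6ST1, ARNTL and MIR4293.

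The libraries come from IMR90, a line of human lung fibroblasts. The cells received a ZNF416-FLAG gene by lentivirus and were selected with puromycin, and no other treatment is given. Their chromatin was fixed with formaldehyde and fragmented by nuclease digestion and sonication. Fragments held by anti-FLAG beads gave 2 ChIP libraries, and 2 input libraries were made without antibody. All 4 libraries are of cells that carry the tagged gene, so signal unrelated to the tag cannot be told apart. The labels name neither the vector's promoter nor the level of the tagged protein relative to the cells' own ZNF416. The data are 1 peak list on hg19 with a position and a score per peak. It gives no spread between replicates and no library depth, which is therefore unknown, and the peaks of a gene are not replicates of each other. The list holds no expression values, so the cell type could not be checked against markers, and whether any of these genes is active in the cells was not measured.

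ZNF416 belongs to the KRAB zinc finger proteins, which bind DNA through arrays of zinc fingers. Many members of this class recruit the co-repressor TRIM28, and many bind transposable elements. A count of peaks per nearest gene does not tell a row of peaks side by side from single peaks far apart, so the genes were sorted by spacing. Neighbouring peaks were called close when their centres lay 2 kb or less apart. A gene was called tight when all its gaps were close, mixed when some were, and spread when none was.

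By this measure 5 genes held tight clusters, 2 were mixed and 2 were spread. The number of tight genes was 0 when neighbours at most 150 bp apart were merged into 1 peak, 1 with only scores at or above the median and 3 without peaks on repeats. The tight ones were IFITM3, SMCO1, DBNDD1, SLC6A3 and MIR137HG, the mixed ones SBNO2 and SORCS2, and the spread ones SLC5A11 and PRKCE. The label of clustered peaks thus holds in full for 5 of the 9 genes. Of the 22 gaps between neighbouring peaks of the same gene, 16 were close, against 65 of 1056 gaps between all neighbouring peaks on chromosomes (6.16%). Since genes were chosen for several peaks, nothing is read from that contrast. The 16 close gaps ran from 256.5 to 582.5 bp between centres, with a median of 362.5 bp. The other 6 ran from 3001.5 to 286014.5 bp. The limit of 2 kb divides the gaps, so the 2 ranges could not overlap. Over all chromosome peaks, the widest close gap was 1344.5 bp and the narrowest gap above the limit was 2015.5 bp.

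**Figure D1:**
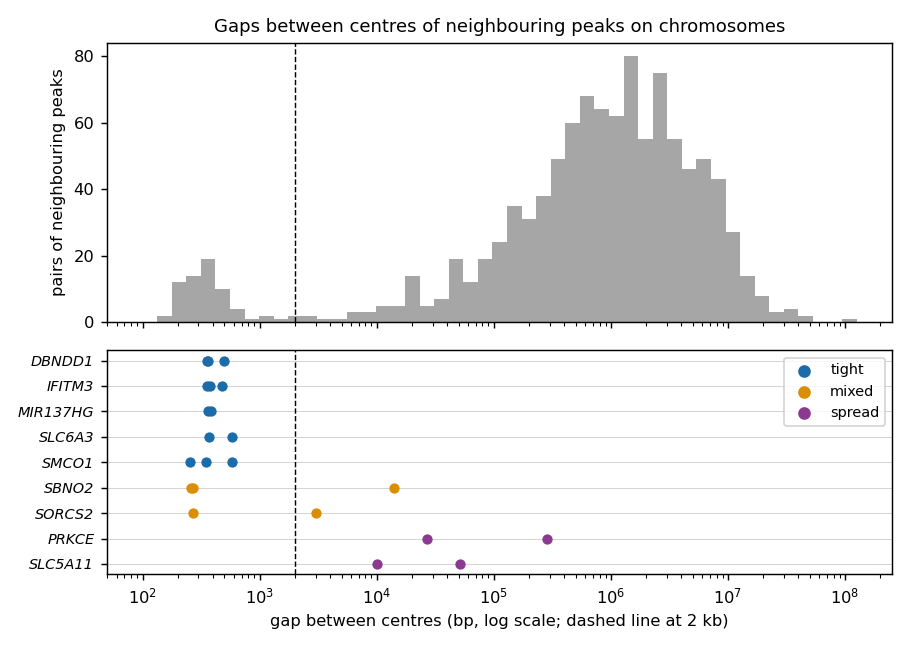
The upper panel counts the gaps between centres of neighbouring peaks on the same chromosome (bp, log scale), and the lower panel shows each gap within the 9 genes as a point coloured by class, with a dashed line at 2 kb. All gaps of the 5 tight genes sit between 256.5 and 582.5 bp, while those of PRKCE and SLC5A11 begin at 9975 bp.

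IFITM3 encodes an interferon-induced membrane protein that restricts the entry of enveloped viruses from endosomes. It is the only one of the 9 genes with peaks less than 1 kb upstream of its start site. The promoter of IFITM3 is shown for this reason, as given by RefSeq on GRCh38.p14 (chr11:320861-321110, minus strand), as the 250 bases before the gene's start. Capitals mark matches to the core of the interferon-stimulated response element, searched as GAAA, any 2 bases and GAAA again, on both strands (TTTC in place of GAAA on the other).

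IFITM3 promoter: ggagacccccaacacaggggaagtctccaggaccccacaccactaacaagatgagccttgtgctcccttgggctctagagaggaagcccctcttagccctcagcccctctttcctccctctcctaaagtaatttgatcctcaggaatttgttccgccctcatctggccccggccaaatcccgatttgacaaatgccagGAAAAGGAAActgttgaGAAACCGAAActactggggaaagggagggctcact

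The promoter held 2 matches that do not overlap, at 52 to 43 and at 35 to 26 bases upstream of the start. Over windows from 250 bases before to 50 after the start, a match was present in 1255 of the 35116 promoters of the table (3.57%), and 2 or more in 91 (0.259%). Of the 9 genes, 5 have a promoter in the table, and only that of IFITM3 held a match. The build of this sequence differs from that of the peaks, so only distances from the start are compared, and no base was assigned to a peak.

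The 4 peaks of IFITM3 formed a row of 1577 bp upstream of the start (chromosome 11, 321043 to 322619). The nearest was centred 290 bp upstream, scored 47 and was 215 bp wide, and its edge nearest to the start lay 183 bp away. Both matches of the motif therefore lay closer to the start than any of the peaks. The second peak, centred 663 bp upstream, was the strongest of the row with a score of 104, rank 155 among the 1080 chromosome peaks. The third scored 31 at 1018 bp and the fourth 86 at 1491 bp, and this last one was the widest at 536 bp.

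Repeats divided the IFITM3 row. The 2 peaks nearest to the start were annotated to the promoter, and the 2 beyond 1 kb were centred on LTR76, a long terminal repeat of the ERV1 class of endogenous retroviruses. No other peak on the chromosomes was centred on LTR76 (2 of 2 nearest to IFITM3). Edge to edge, the peaks were 81 to 137 bp apart, and 79.6% of the row was covered by peaks.

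Several IFITM genes are close relatives arrayed side by side, and of the other 4 members of the family only IFITM2 was nearest to a peak. That peak, in intron 1 of IFITM2 (chromosome 11, 308793 to 308899), scored 17 and lay 739 bp downstream of its TSS, 12143 bp before the first IFITM3 peak. No source used here says how reads that match more than 1 copy were treated, so the split between IFITM2 and IFITM3 is uncertain. Of 31 other interferon-stimulated genes, only IRF1, which encodes an interferon regulatory factor, was nearest to a peak (3.23%, against 3.58% of the 20052 protein-coding genes). Its peaks scored 83 at 6920 bp upstream and 15 at 20067 bp upstream, the latter on an MLT2B4 element.

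MIR137HG is the host gene of the microRNA miR-137, which is known for its part in neuronal differentiation. Its mature products are shown to identify the locus, with the seed (bases 2 to 8) in capitals, as RefSeq gives them on the minus strand of chromosome 1 of GRCh38.p14.

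hsa-miR-137-3p: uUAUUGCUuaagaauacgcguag

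hsa-miR-137-5p: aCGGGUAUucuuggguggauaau

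The 3 peaks of MIR137HG made the shortest of the member rows, 857 bp (chromosome 1, 98513626 to 98514482), all in intron 1 of 4. A central peak with a score of 192 and a width of 415 bp was flanked by peaks of score 63 and 62, each 107 bp wide, the lowest width in the list. The central peak ranked 28 of 1080. Going downstream from the start, the centres lay at 820, 1185 and 1570 bp, so the gaps were nearly even, at 365 and 385 bp. The outermost of them was centred on a (CA)n simple repeat. No peak was nearest to MIR137 or MIR2682, the microRNA genes of this locus, or to the neighbouring DPYD, a pyrimidine-degrading enzyme gene (0 of 3).

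SLC6A3 encodes the dopamine transporter, which returns dopamine to nerve endings. It carried the strongest of the 1080 chromosome peaks, with a score of 355 and a width of 675 bp. This peak was followed by 2 weak peaks of score 32 and 50 in the same intron (intron 4 of 14). The row ran over 1388 bp (chromosome 5, 1422426 to 1423813), with 109 and 130 bp between edges, and 82.8% of it was covered. None of the 18 other SLC6 transporter genes was nearest to a peak, and of 12 other dopamine genes 1 was (8.33%), against 3.58% of protein-coding genes. The dopamine gene was DRD3, a receptor gene, with a score of 56 in intron 5 of 7 (chromosome 3, 113864069 to 113864268).

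SMCO1 encodes a small membrane protein with a coiled coil. Its 4 peaks lay in intron 1 of 2, over 1456 bp (chromosome 3, 196237797 to 196239252), between 3138 and 4323 bp downstream of the TSS. In order of position they scored 77, 21, 80 and 38, so strong and weak peaks alternated. The weakest was also the narrowest, at 127 bp, and the strongest the widest, at 366 bp. The last gap, 582.5 bp between centres, was the widest of all close gaps within the 9 genes. The other 3 SMCO genes were nearest to no peak.

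DBNDD1, a gene of the dysbindin family, had 4 peaks that did not lie in it. All 4 were annotated to exon 11 of 11 of AFG3L1P, a transcribed pseudogene of a mitochondrial protease gene that neighbours DBNDD1, over 1521 bp (chromosome 16, 90061198 to 90062718). They were credited to DBNDD1 because its TSS was the nearest, 13969 to 15179 bp away. The scores were 44, 56, 15 and 47, and the strongest ranked only 580 of 1080. It is the only one of the 9 genes with no score at or above the chromosome median of 60. Widths were the most even of the 9 genes, from 281 to 323 bp. DBNDD2 and DTNBP1, the other dysbindin genes, were nearest to no peak.

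**Figure D2:**
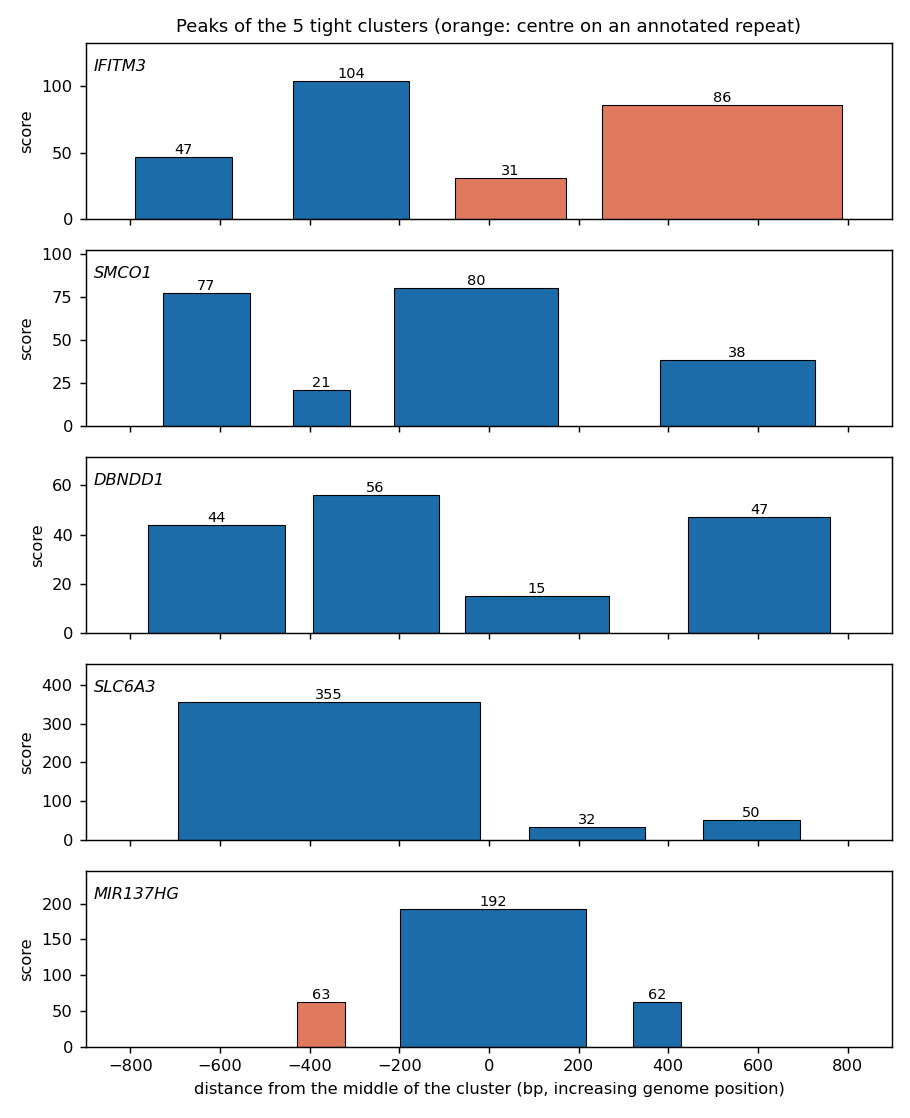
Each panel shows 1 tight cluster on a common scale of distance from its middle (bp), with a box for each peak drawn to its width and its score as the height (the score axes differ between panels), and orange boxes for peaks centred on an annotated repeat. MIR137HG shows a strong centre of 192 between peaks of 63 and 62, SLC6A3 a strong end of 355, and SMCO1 an alternation of 77, 21, 80 and 38.

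SBNO2, a gene for a transcriptional co-regulator of the strawberry notch family, held 2 separate close pairs in its intron 1 of 31 rather than 1 cluster. The pair nearer to the start lay 4875 and 5144 bp downstream of the TSS and scored 80 and 48. The farther pair lay 19204 and 19464 bp downstream and scored 84 and 68. Within the pairs the centres were 269 and 260.5 bp apart, and between the pairs 14060 bp. In each pair 1 peak was labelled a CpG island, the one of score 48 in the near pair and the one of score 84 in the far pair. Its relative SBNO1 was nearest to no peak.

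SORCS2 encodes a sorting receptor of the VPS10 family that binds neurotrophin precursors. By nearest TSS it had 3 peaks in intron 1 of 26 (chromosome 4, 7209215 to 7212676). A single peak of score 67 was followed, 3001.5 bp on, by a close pair of score 82 and 100. This gap is the member gap nearest to the limit of 2 kb, and SORCS2 was tight when the limit was 5 kb.

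Counting peaks by the gene that holds them gave SORCS2 8 peaks, the most of any gene. The further 5 were credited to start sites of other genes. A pair of them, with scores of 21 and 76, lay in intron 3 and was nearest to MIR4274. The remaining 3, with scores of 62, 51 and 56, lay in intron 14 over a (GGCTG)n simple repeat and were credited to AFAP1-AS1 (chromosome 4, 7707742 to 7708504). SORCS2 therefore contains a tight cluster, but not among the peaks credited to it. None of the other VPS10 receptor genes, SORT1, SORL1, SORCS1 and SORCS3, was nearest to a peak.

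The same count changed no other of the 9 genes upward. Among 529 chromosome peaks whose annotation places them in a gene with a matched transcript, 7 genes held 3 or more. These were SORCS2, AFG3L1P, SBNO2, SMCO1, ABLIM3, MIR137HG and SLC6A3. Of the 31 peaks described, 21 lay within the gene they were credited to. IFITM3 and DBNDD1 contained 0 of their 4, and SLC5A11 and PRKCE 2 of their 3.

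PRKCE, the gene of protein kinase C epsilon, a lipid-activated signalling kinase, had peaks spread over 312795 bp (chromosome 2, 45877166 to 46189960). A weak peak of score 46, labelled a CpG island, lay 1595 bp upstream of the TSS. The other two lay deep in intron 2 of 14, with a score of 130 at 284419 bp and of 72 at 311077 bp downstream. Peaks covered 0.199% of the span. Of 8 other protein kinase C genes, 1 was nearest to a peak (12.5%, against 3.58% of protein-coding genes). This was PRKCZ, whose peak scored 82 on an Alu repeat in intron 5 of 17.

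SLC5A11, which encodes a sodium-coupled myo-inositol transporter, had 3 peaks over 61329 bp (chromosome 16, 24850554 to 24911882), with gaps of 9975 and 51109 bp. They scored 80, 95 and 134 in order of position. The first lay 6524 bp upstream of a TSS on a MIRb element, the second 3083 bp downstream of another SLC5A11 TSS on an AluSx element, and the third 54192 bp downstream, outside repeats. These peaks were thus credited to 2 different start sites of the gene. The other 11 SLC5 transporter genes were nearest to no peak. Only 3.58% of all protein-coding genes were nearest to one. Nothing is therefore read from counts of 0 in short lists of relatives, here or for the other genes described.

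**Figure D3:**
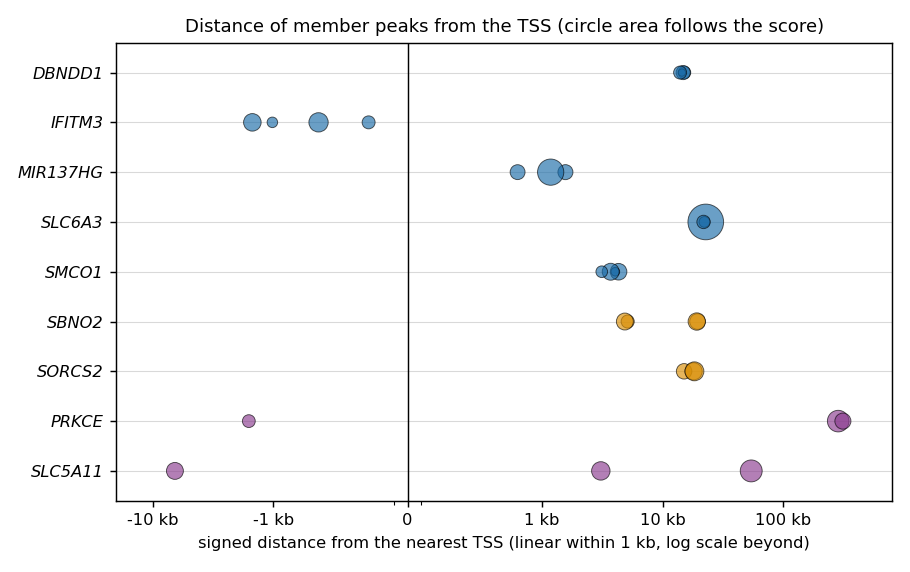
Each circle is 1 peak at its signed distance from the nearest TSS (linear within 1 kb, log scale beyond), with an area that follows its score, for the 9 genes ordered and coloured by class. Only IFITM3, PRKCE and SLC5A11 have peaks upstream of the start, and only IFITM3 and MIR137HG have peaks within 1 kb.

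Few of these peaks lay at promoters. Within 1 kb of a TSS were 3 of the 31 (9.68%), against 329 of the 1080 chromosome peaks (30.5%), and these were the 2 of IFITM3 and 1 of MIR137HG. In introns were 21 (67.7%), against 41.9% of all chromosome peaks. Downstream of the TSS were 25 and upstream 6. A repeat was annotated at 5 peaks (16.1%), against 19.4% of all chromosome peaks, and these belonged to IFITM3, MIR137HG and SLC5A11. The other 5 genes with 3 or more peaks, with 15 peaks, also had few at promoters (0 within 1 kb). For introns and repeats they went the other way, with 4 peaks (26.7%) and 8 peaks (53.3%). Those 2 shares thus describe these 9 genes and not all genes with 3 or more peaks. Since up to 4 peaks share a gene, the shares of the 31 peaks rest on 9 loci and were not tested.

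Their scores covered most of the range on the chromosomes, from 15 in DBNDD1 to 355 in SLC6A3, with a median of 68 against 60 for all chromosome peaks. At or above 60 were 19 of 31 (61.3%, against 50.2%). In the other 5 genes with 3 or more peaks it was 5 of 15 (33.3%). Pooled over peaks, the median score was 53 over 18 peaks of tight genes, 80 over 7 of mixed and 87.5 over 6 of spread genes. By each gene's strongest peak this order did not hold. Tight genes reached 355, 192, 104, 80 and 56, mixed genes 100 and 84, and spread genes 134 and 130. Each gene's strongest peak had a median of 104 over the 9 genes, and their remaining 22 peaks a median of 56. The former are higher by the way they were picked, so nothing is read from this difference. In 4 genes the strongest peak was among the top 10% of chromosome peaks. These were SLC6A3, MIR137HG, SLC5A11 and PRKCE, which include both spread genes. The best of several peaks was taken in each gene, so this count cannot be set against the 10% of single peaks.

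Widths were pooled over peaks too. The median width was 269.5 bp in tight genes, 152 bp in mixed and 175.5 bp in spread genes, against 137 bp for all chromosome peaks. By each gene's own median the classes overlapped. Tight genes had 252.5, 271.5, 311, 258 and 107 bp, mixed genes 138 and 236 bp, and spread genes 213 and 138 bp. The lowest of these was that of MIR137HG, a tight gene. In 5 of the 9 genes the widest peak was also the strongest. Among the other 5 genes with 3 or more peaks, this held only for MIR4293. Across the 31 peaks the rank correlation of width and score was weak (Spearman's rho 0.18), as it was across all 1080 (0.18). Peaks of the same locus share their surroundings, and all share the same libraries, so these are descriptions.

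**Figure D4:**
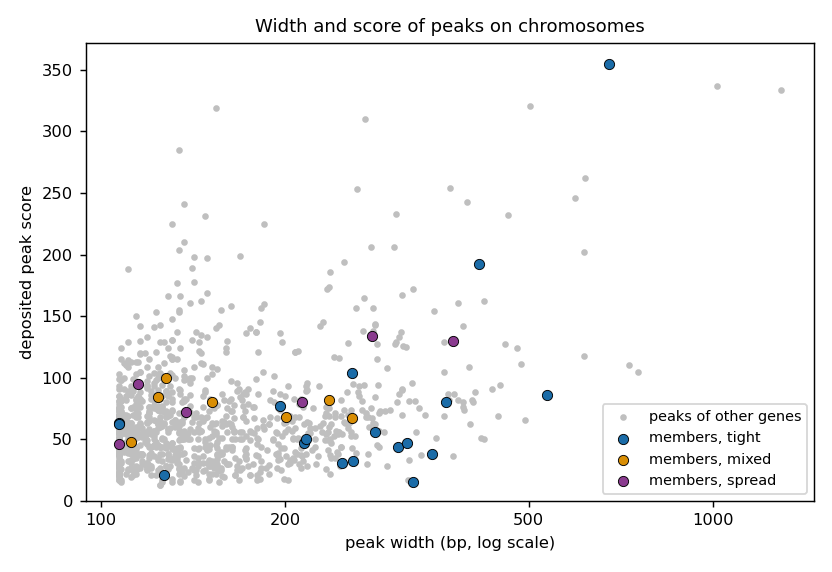
Peak width (bp, log scale) is plotted against the deposited score for all 1080 chromosome peaks, with the 31 peaks of the 9 genes coloured by class and the rest in grey. Of the 18 peaks of tight genes, 15 are wider than the 137 bp median of all chromosome peaks, and their highest scores are 355 at SLC6A3 and 192 at MIR137HG.

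Spacing alone, with no use of gene names, gave 8 runs of 3 or more close peaks on the chromosomes, and all peaks of each run were credited to 1 gene. The 5 tight genes made up 5 of them, which the shared limit of 2 kb fixed in advance. The remaining runs were those of TNFRSF18, a receptor gene of the tumour necrosis factor family, of the microRNA gene MIR4293, and of AFAP1-AS1. Their scores reached 62, 80 and 62 and their rows spanned 1034, 1248 and 763 bp. A repeat was annotated at 6 of these 9 peaks, against 3 of the 18 in tight members.

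HS6ST1, a heparan sulfate sulfotransferase gene, and the clock gene ARNTL completed the 14. HS6ST1 was mixed, with a close pair of score 22 and 38 on an SVA_F element and another peak of score 53 at 165217.5 bp from it. ARNTL was spread over 146632 bp, with scores of 58, 89 and 88.

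Just outside the threshold, 80 genes were nearest to exactly 2 chromosome peaks, and in 40 of them (50%) the centres lay within 2 kb. The 5 shortest gaps were 171 bp at HHATL, 173 bp at SDK1, 184 bp at ZNF254, 185.5 bp at ZNF546 and 186.5 bp at ZNF8. All of these are shorter than the shortest gap within the 9 genes, 256.5 bp at SMCO1. At the other end, the gap was 570102 bp at CAMTA1, 518702 bp at LOC440895 and 372261 bp at LINC01123, wider than any at PRKCE. The LINC01123 pair (chromosome 2, 110757053 to 111129447) lay between the peaks of LOC440895 (110683785 to 111202838). The LOC440895 peaks are therefore not neighbours, and the gaps of these genes are not separate. Just inside the threshold, the 5 of the 9 genes with exactly 3 peaks ranged from 857 bp at MIR137HG to 312795 bp at PRKCE in span.

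The peak identifiers are numbered along the chromosomes, and in all 9 genes the numbers ran on without a missing one. No peak of another gene lay between the peaks of any of them, and no peak of another gene lay within 10 kb of them.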

How the data were processed

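Chromatin immunoprecipitation sequencing of ZNF416-FLAG was deposited as 1 peak list for 4 libraries. Bowtie2, Picard, MACS2, deepTools and HOMER, with the hg19 build, are named per the submitters' processing notes, with no version or role. Per the file headers, HOMER annotated a narrowPeak file after removal of blacklisted regions. No source used here gives the combination of replicates, the use of input or a filter on mapping quality. The score of each peak is the authors' own value on a scale that is not stated, and it was used only to describe and rank peaks within this list.

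Peaks on assembled chromosomes (no unplaced or unlocalised contigs) were kept, and those of the 9 genes taken by nearest gene name. Positions are printed as deposited, widths are end minus start plus 1, and gaps run between centres. Repeat and CpG island labels are those of the authors' detailed annotation. Transcripts that hold a peak were matched to symbols in a RefSeq gene table of GRCh38.p14, whose coordinates were not used. All 9 symbols matched. Scripts used Python 3.11.15 with pandas 2.3.3, and the sorting by spacing was tested on simulated data.

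The members, lists and limits were chosen with earlier results of these data known, and the motif and the count by holding gene after the peaks had been seen. No test was run, because the members were chosen by their number of peaks. Genes named were all 9 members, other genes with 3 or more peaks, the 5 closest and 3 widest pairs among genes with 2, genes holding or within 10 kb of member peaks, and members of the lists of related genes nearest to a peak. AFG3L1P and MIR4274 were named as holding or credited genes, and ABLIM3, MIR137 and relatives without a peak beside their counts.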

Additional observations from a re-analysis of the deposited data

How the results depend on the processing

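No paired analysis was possible because the deposited list has no value per library, and for the same reason no replicate could be left out. With only scores at or above the median, the 9 genes kept 19 of their 31 peaks, 4 genes still had 3 or more, 1 was still a tight cluster (MIR137HG), and 3.28% of neighbouring chromosome peaks were close. With neighbours at most 150 bp apart merged, 17 peaks were left, 2 genes had 3 or more (SLC5A11 and PRKCE), 0 were tight, and 1.98% of neighbours were close. IFITM3, SLC6A3 and MIR137HG each became 1 peak. Without peaks on repeats, 26 peaks and 6 genes were left, with 3 tight clusters (SMCO1, DBNDD1 and SLC6A3). A limit of 1 kb left 5 tight genes, and limits of 5 kb and 10 kb gave 6, by adding SORCS2. At 10 kb, 1 gene was spread (PRKCE). Peaks near a TSS numbered 1 within 500 bp and 14 within 5 kb. Depth is unknown, so weak members of a row, such as the DBNDD1 peak of score 15, have no measured error.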

Other observations

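Peaks centred on simple repeats were few, 15 on all chromosomes, and 7 of them lay on the same 5-base unit, read as GGCTG on one strand and CAGCC on the other, with all rotations counted. Of these 7, 4 belonged to the close rows of AFAP1-AS1 and TNFRSF18. The others were nearest to CFAP74 (score 82), MOB2 (score 91) and GPC1 (score 35). Among the 9 genes described above, 1 peak lay on a simple repeat, the (CA)n of MIR137HG. How much of the genome this unit makes up was not analysed. This grouping was chosen after the labels had been read.

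In the order of peaks along each chromosome, 4 of the 5 tight genes stood among the first or last 5 peaks. Of single peaks, 225 of the 1080 on chromosomes did (20.8%). The first count is of genes with rows of peaks and the second of peaks, so the 2 cannot be compared directly. SMCO1 and DBNDD1 held the last 4 of 57 peaks on chromosomes 3 and 16. IFITM3 held places 2 to 5 of 78 on chromosome 11, and SLC6A3 places 3 to 5 of 56 on chromosome 5. MIR137HG, at places 66 to 68 of 111 on chromosome 1, was the exception among the 5. Of the other 3 tight genes, TNFRSF18 stood at an end, at places 1 to 3 of 111 on chromosome 1. MIR4293 (places 7 to 9 of 62) and AFAP1-AS1 (places 10 to 12 of 33) did not. The order was looked at after the positions were known.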
